A study of Mus musculus with 5 samples.

Results

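Mouse chromosome 2 carries clusters of small genes for secreted proteins. The genes described here were the protein-coding genes of GENCODE M21 on that chromosome whose symbol is Lcn or Wfdc followed by a digit, together with Spint3, Spint4 and Slpi. They number 27 of 21728 protein-coding genes, 10 of them lipocalins and 17 of the Wfdc, Spint and Slpi group. The families were chosen by measured values of these same peak lists, in which H3K27me3 coverage near them had already been seen to be longer in Kdm6b-cKO cells. Their values below are therefore a description, with no test, and the share of all genes with the same pattern stands beside the main counts.

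H3K27me3, trimethylation of lysine 27 on histone H3, is placed by Polycomb repressive complex 2 (PRC2) on silent genes, and the demethylase Kdm6b (Jmjd3) removes it. The study deleted Kdm6b in dermal fibroblasts with Dermo1 (Twist2) Cre and a floxed allele (Dermo1Cre-Kdm6b fl/fl, here Kdm6b-cKO), in mice of C57BL/6 background, and compared them with WT by ChIP-seq of E18.5 dermal cells that had been expanded in culture in AmnioMAX medium. Both groups shared the culture and the antibody, and the labels state a GFP sort for the WT samples as well as for the Kdm6b-cKO samples. Deposited lists of broad MACS2 peaks were analysed for 2 libraries of each genotype, Kdm6b-cKO replicates 3 and 4 with WT replicates 7 and 9. The study writes WT as Kdm6b fl/fl littermates in its single-cell experiment, and no source used here says outright whether this holds for the ChIP-seq WT, whether WT carried Cre or which libraries came from separate embryos. In addition, a peak list cannot show the deletion of Kdm6b itself. The methods also list a ROSA26 mT/mG reporter line without saying whether these cells carried it.

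Lipocalins are small barrel-shaped carriers of lipids, retinoids, steroids, odorants and siderophores. Most of those on this chromosome are best known from the epididymis or the nasal glands, and Lcn2 from neutrophils and inflamed epithelia. Wfdc proteins carry the whey acidic protein (WAP) domain and Spint proteins the Kunitz domain. Both domains occur in inhibitors of serine proteases, and many of these genes are expressed in the epididymis, testis or mucosal glands.

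The peak lists differed in size across the whole genome, and this touches every value below. Covered length was 148 and 124 Mb in Kdm6b-cKO against 91.4 and 61.5 Mb in WT, a ratio of group means of 1.78, and the 2 WT libraries differed from each other by a ratio of 1.48. Beyond the trimmed lists given below, the part of this difference in the results was not tested. As a check of cell type, the promoters of 14 fibroblast genes, such as Pdgfra, Col1a1 and Twist2, were marked in 0 of 4 libraries. Of 11 markers of other cell types, 7 were marked in at least 1 library and 5 in all 4. A promoter was the transcription start site (TSS) ± 3 kb, and it was called marked when peaks covered at least 500 bp of it.

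Promoter sequences are shown for the lipocalins with the largest (Lcn3, Lcn10) and smallest (Lcn8) promoter difference between genotypes. They are also shown for Lcn2, which stands alone. Of the Wfdc and Spint genes, sequences are given for the largest (Wfdc6a) and the most negative (Spint3, -1317 bp) difference, Kdm6b-cKO minus WT. Each runs 5′ to 3′ from 250 bases before to 50 after the RefSeq start, with every CpG in capitals and the rest in lower case. On GRCm38.p6 (mm10) they lie at chr2:25765283-25765582 (+) for Lcn3, chr2:25682476-25682775 (+) for Lcn10, chr2:25652868-25653167 (+) for Lcn8, chr2:32387690-32387989 (-) for Lcn2, chr2:164585398-164585697 (-) for Wfdc6a and chr2:164573407-164573706 (-) for Spint3.
Lcn3: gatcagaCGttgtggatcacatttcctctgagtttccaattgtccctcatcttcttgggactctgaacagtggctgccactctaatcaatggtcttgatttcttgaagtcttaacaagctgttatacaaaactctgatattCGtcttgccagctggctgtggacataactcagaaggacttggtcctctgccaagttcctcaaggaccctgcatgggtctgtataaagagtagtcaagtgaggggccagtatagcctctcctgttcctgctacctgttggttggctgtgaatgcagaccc
Lcn10: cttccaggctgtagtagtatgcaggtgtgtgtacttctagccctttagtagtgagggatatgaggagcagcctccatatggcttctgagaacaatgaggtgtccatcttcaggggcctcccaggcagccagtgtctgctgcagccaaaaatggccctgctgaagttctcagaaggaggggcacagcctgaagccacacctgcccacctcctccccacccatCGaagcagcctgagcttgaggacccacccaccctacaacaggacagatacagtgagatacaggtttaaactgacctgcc
Lcn8: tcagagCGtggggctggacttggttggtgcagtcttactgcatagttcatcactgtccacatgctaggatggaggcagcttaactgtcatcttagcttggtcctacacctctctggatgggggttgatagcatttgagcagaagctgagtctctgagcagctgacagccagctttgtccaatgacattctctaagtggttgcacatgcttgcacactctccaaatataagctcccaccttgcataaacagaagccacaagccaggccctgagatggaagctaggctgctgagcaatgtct
Lcn2: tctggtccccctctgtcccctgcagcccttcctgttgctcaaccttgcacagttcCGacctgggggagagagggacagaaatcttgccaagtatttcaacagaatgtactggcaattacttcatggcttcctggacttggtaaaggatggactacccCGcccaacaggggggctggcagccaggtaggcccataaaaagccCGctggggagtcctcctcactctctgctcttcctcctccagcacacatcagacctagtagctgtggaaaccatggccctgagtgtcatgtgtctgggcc
Wfdc6a: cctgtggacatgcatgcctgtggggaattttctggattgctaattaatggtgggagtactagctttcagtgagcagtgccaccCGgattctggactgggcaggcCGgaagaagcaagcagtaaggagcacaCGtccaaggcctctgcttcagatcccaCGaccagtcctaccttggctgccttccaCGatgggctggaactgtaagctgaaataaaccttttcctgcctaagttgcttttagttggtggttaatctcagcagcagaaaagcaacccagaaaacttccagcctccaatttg
Spint3: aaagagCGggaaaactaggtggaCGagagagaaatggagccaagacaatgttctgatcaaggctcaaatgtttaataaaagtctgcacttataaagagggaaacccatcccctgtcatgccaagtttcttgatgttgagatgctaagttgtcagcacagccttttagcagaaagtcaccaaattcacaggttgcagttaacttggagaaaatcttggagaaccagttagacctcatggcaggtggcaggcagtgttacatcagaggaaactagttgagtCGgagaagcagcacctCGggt

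These 6 promoters held between 1 and 5 CpG. The Lcn3, Lcn10 and Lcn2 sequences lay wholly inside peaks of both Kdm6b-cKO libraries and had 0 bases inside peaks of either WT library. The Lcn8 and Spint3 sequences lay wholly inside peaks of all 4 libraries. The Wfdc6a sequence was wholly covered in both Kdm6b-cKO libraries, at 0 bases in WT replicate 7 and at 291 of 300 bases in WT replicate 9.

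H3K27me3 covered more of these genes' surroundings in Kdm6b-cKO than in WT cells. Within 25 kb of the TSS, both Kdm6b-cKO values lay above both WT values for 22 of 27 genes (81.5%), against 35.9% of all genes and 62.8% of the 12441 genes that had any covered base there. Both WT values lay above both Kdm6b-cKO values for 2 genes, Wfdc12 and Wfdc15a (1.64% of those 12441 genes). The median difference in this window, Kdm6b-cKO minus WT, was 13.4 kb over the 27 genes and 0.163 kb over all genes. Over the 12441 genes with any covered base there it was 2.21 kb. It was 17.2 kb over the lipocalins and 10.2 kb over the Wfdc, Spint and Slpi genes. The genes are not separate observations, because neighbouring windows overlap: the 27 genes fall into 8 separate stretches at ± 25 kb and 23 at ± 3 kb.

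At promoters, 22 of 27 genes were marked in at least 1 library (81.5%; 28.8% of all genes). All 4 libraries marked 8 of them, namely Lcn8, Lcn6, Lcn4, Wfdc2, Spint3, Wfdc6a, Wfdc10 and Wfdc9 (29.6%; 15.2% of all genes). Another 8 were marked in each Kdm6b-cKO library while both WT libraries stayed under the limit, here called cKO-only: Lcn12, Lcn3, Lcn11, Lcn2, Wfdc6b, Wfdc8, Wfdc16 and Wfdc13 (29.6%; 4.28% of all genes and 14.9% of the 6251 genes marked in at least 1 library). The reverse pattern was seen for 0 of the 27 genes (0.069% of all genes). A further 6, Lcn5, Lcn10, Lcn9, Wfdc15a, Slpi and Wfdc11, were marked in other combinations, and Wfdc5, Wfdc12, Wfdc15b, Spint4 and Wfdc3 were marked in no library. The lower Kdm6b-cKO value exceeded the higher WT value at 19 promoters (70.4%; 14.5% of all genes). These counts moved with the unequal lengths of the lists. With an equal number of peaks in each list, covered lengths still differed (122 and 104 Mb in Kdm6b-cKO against 85.1 and 61.5 Mb in WT). The 25 kb count then stayed at 22 genes (81.5%; 26.8% of all genes), with 3 genes in the reverse order (11.1%; 2.16% of all genes). At promoters 5 genes were then cKO-only (2.81% of all genes). When each list was trimmed to its strongest peaks at the covered length of the shortest, 1 gene (Lcn2) kept the cKO-only pattern against 0.7% of all genes and 2 were marked in all 4 libraries (10.9% of all genes). Then within 25 kb the lower Kdm6b-cKO value exceeded the higher WT value for 4 genes, Lcn9, Lcn2, Slpi and Wfdc6a (14.8%; 12.7% of all genes). The reverse held for 8 genes, Lcn8, Lcn5, Lcn6, Lcn10, Lcn4, Wfdc12, Wfdc15a and Wfdc15b (29.6%; 7.84% of all genes).

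**Figure D1:**
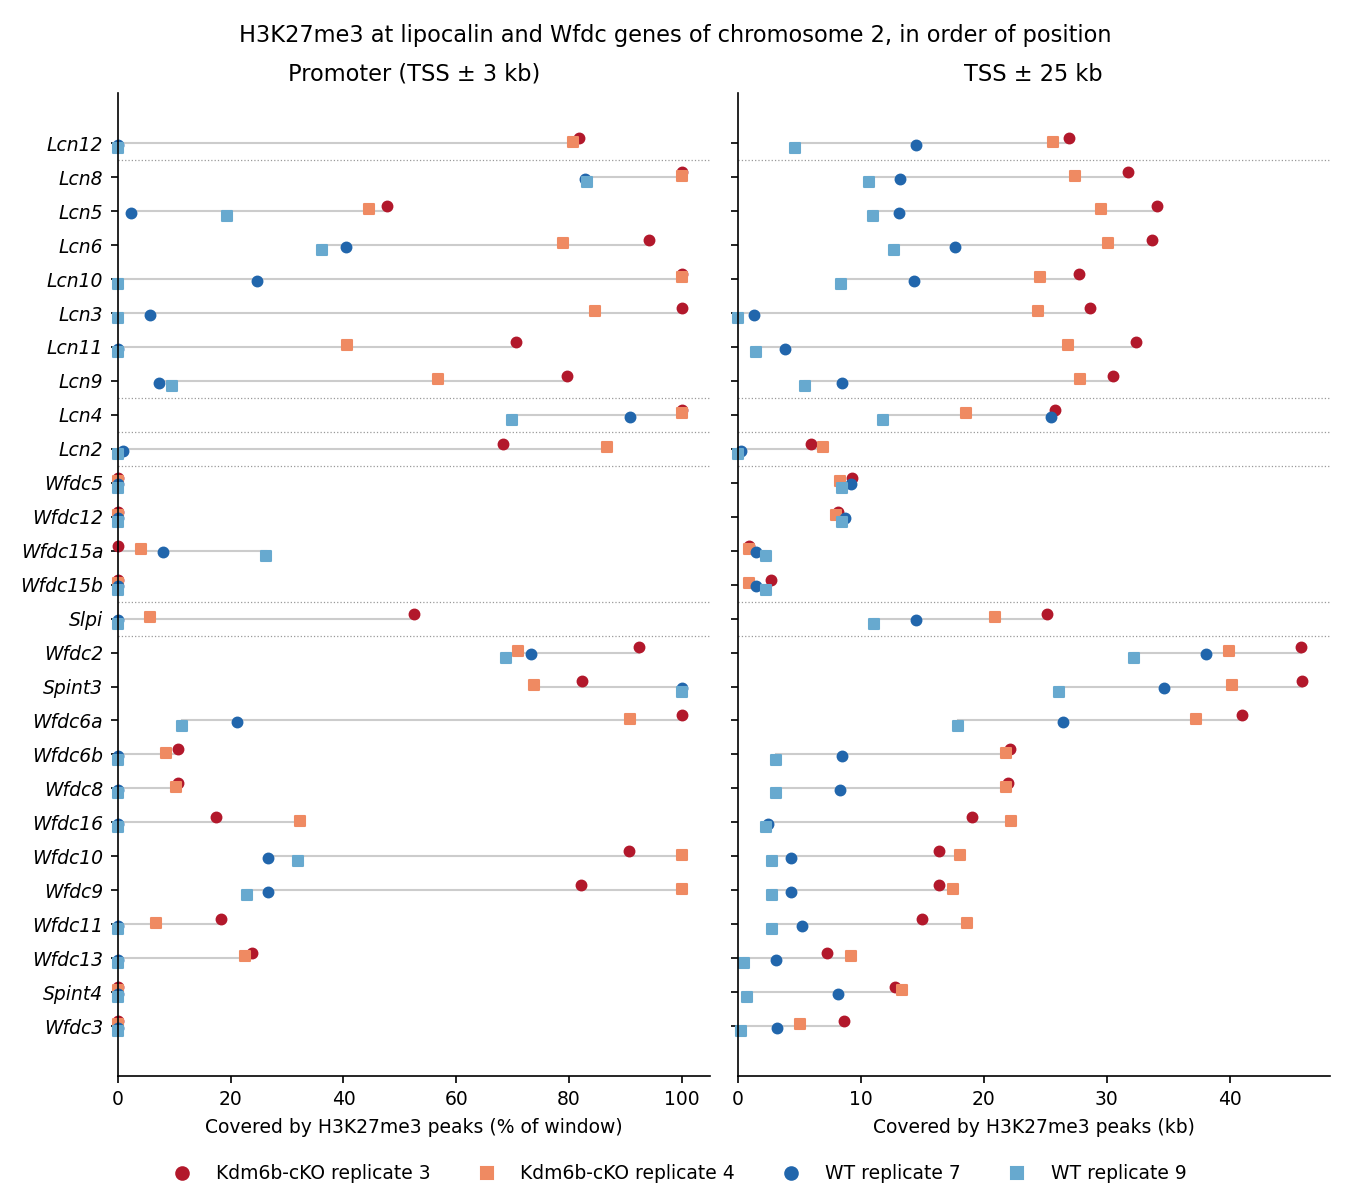
Covered share of the promoter (TSS ± 3 kb, % of the window, left) and covered length within 25 kb of the TSS (kb, right) for the 27 genes in order along chromosome 2, with one symbol for each of the 4 libraries and a grey line from the lowest to the highest. Red and orange (Kdm6b-cKO) lie to the right of both blues (WT) at 22 genes in the right panel. Wfdc5, Wfdc12, Wfdc15b, Spint4 and Wfdc3 sit at 0% in the left panel.

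Genes less than 100 kb apart formed 7 runs, a limit chosen after the values were seen. The longest lipocalin run holds 7 genes, Lcn8, Lcn5, Lcn6, Lcn10, Lcn3, Lcn11 and Lcn9, and with 25 kb on each side spans chr2:25628120-25848153. Peaks covered 52.6% and 46.1% of it in Kdm6b-cKO against 15.7% and 10.2% in WT (means 49.3 ± 4.57% and 12.9 ± 3.93%, SD, n = 2), a ratio of 3.81 where the whole genome had 1.78. As a share of each library's own covered length, the run held 7.80 and 8.19 per 10000 in Kdm6b-cKO against 3.79 and 3.63 per 10000 in WT. The groups did not overlap on either measure. The direction turned, however, at equal covered length, where the run was covered over 4.23% and 4.18% in Kdm6b-cKO against 6.24% and 10.2% in WT. That trimming left 5185 of 44084 peaks in Kdm6b-cKO replicate 3 and 22607 of 22607 in WT replicate 9. With an equal number of peaks in each list, the shares were 43.3% and 39.3% against 13.8% and 10.2%.

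Each library covered the run with a series of separate peaks, which were more numerous and reached greater lengths in Kdm6b-cKO. Kdm6b-cKO replicates 3 and 4 had 25 and 35 peaks in the run, the longest 12.5 and 10.9 kb. WT replicates 7 and 9 had 19 and 13 peaks, the longest 6.62 and 4.99 kb. Joined across libraries they made 29 regions. Of these, 8 were present in all 4 libraries, 7 cKO-only, 0 WT-only and 14 in other combinations. Joined regions were not counted over the whole genome, where the Kdm6b-cKO lists are also the longer ones, so these counts cannot be read as a trait of the run. The 7 cKO-only regions added up to 27.5 kb. The longest lay at the right end of the run, over Sohlh1, at chr2:25838188-25848153 with its right edge set by the end of the run. The highest fold enrichment of a peak in it, over the caller's background, was 3.07 in Kdm6b-cKO replicate 3 and 3.001 in Kdm6b-cKO replicate 4.

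The peaks themselves were of ordinary strength. Median fold enrichment in the run was 2.90 and 2.88 in Kdm6b-cKO against 2.84 and 3.08 in WT, beside 2.84, 2.84, 2.93 and 3.06 over the whole lists in the same order. By −log10 q, the run's median peak stood at percentiles 57.4 and 56.2 of its list in Kdm6b-cKO against 31.4 and 53.0 in WT. More of the run was covered in Kdm6b-cKO, while the peaks there were about as strong as others in their lists.

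**Figure D2:**
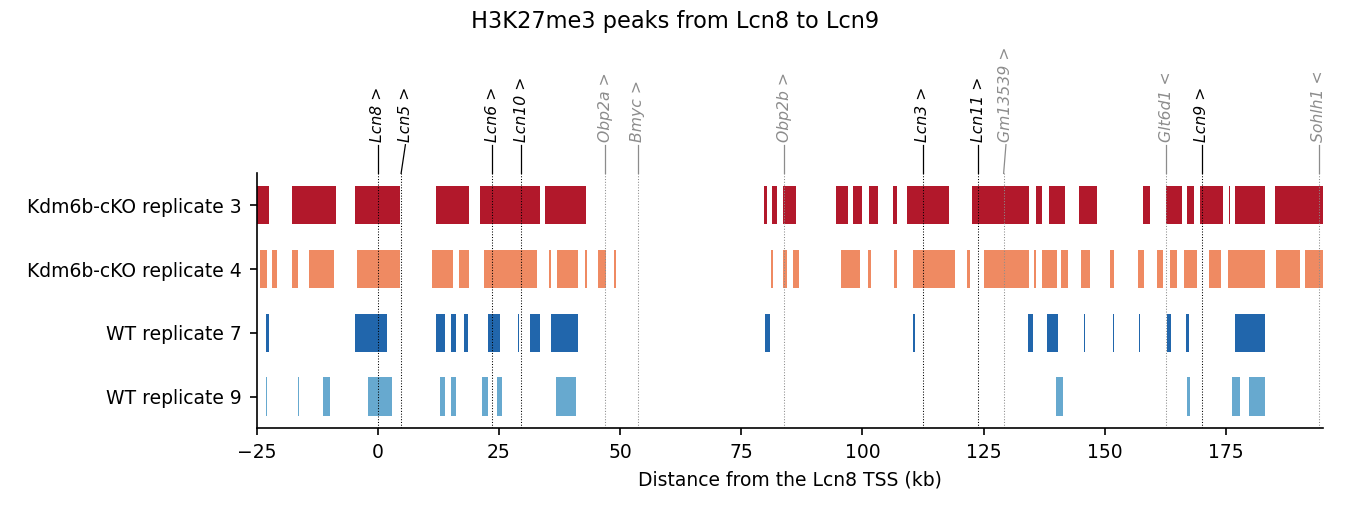
Peaks of the 4 libraries along the run from Lcn8 to Lcn9, with distance from the Lcn8 TSS in kb on the x axis and one row of bars for each library. Dotted lines are start sites, black for the lipocalins described and grey for other genes, and > or < gives the strand. Kdm6b-cKO peaks fill much of the stretch around Lcn3 and Lcn11, where WT replicate 7 has a few short peaks and WT replicate 9 nearly none, and 0 peaks lie between 49.1 and 79.8 kb in any library.

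Among the epididymal lipocalins at the left of this run, Lcn8, a retinoid carrier of the epididymis, had a promoter covered over 6001 and 6001 bp in Kdm6b-cKO against 4970 and 4989 bp in WT. The mark at Lcn8 was thus present in both genotypes. Its wide window held 31.8 and 27.4 kb in Kdm6b-cKO cells against 13.2 and 10.7 kb in WT cells. Lcn5, the epididymal retinoic acid-binding protein, had 2863 and 2675 bp against 138 and 1161 bp in its promoter. Lcn6 had 5656 and 4734 bp against 2424 and 2171 bp. Lcn10 was covered over the full 6001 bp in both Kdm6b-cKO libraries and over 1483 and 0 bp in WT. For each of these 4 genes the lower Kdm6b-cKO value lay above the higher WT value, and Lcn10 had the widest gap, with the 2 WT libraries differing from each other. At equal covered length all 4 genes turned round within 25 kb, with 0 kb in both Kdm6b-cKO libraries against 1.81 and 10.7 kb for Lcn8, 1.81 and 10.99 kb for Lcn5, 7.48 and 12.7 kb for Lcn6 and 7.48 and 8.39 kb for Lcn10. The Lcn10 promoter then had 0 bp in every library.

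The right side of the run gave the largest differences within 25 kb among the 27 genes. Lcn3, a secretory protein of the vomeronasal glands, had a promoter covered over 6001 and 5076 bp in Kdm6b-cKO against 341 and 0 bp in WT. Within 25 kb it had 28.6 and 24.4 kb against 1.36 and 0 kb. Lcn11 had 4235 and 2433 bp against 0 and 0 bp at the promoter, and 32.4 and 26.9 kb against 3.86 and 1.47 kb within 25 kb. By the difference in group means within 25 kb, Lcn11 (26.96 kb) and Lcn3 (25.8 kb) ranked 43 and 53 of 21728 genes. Their start sites are 11448 bp apart, so most of the wide window is shared. Lcn9, an epididymal lipocalin, followed with 30.5 and 27.8 kb against 8.52 and 5.48 kb, and a promoter covered over 4779 and 3411 bp against 440 and 578 bp. At equal covered length, peaks covered 0 bp of the Lcn3 and Lcn11 promoters in every library, so these gains consist of peaks that are not among the strongest of their lists. Lcn9 then kept its direction within 25 kb, with 9.30 and 9.20 kb against 6.26 and 5.48 kb. Its promoter had 0 and 0 bp in Kdm6b-cKO against 0 and 578 bp in WT.

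The lipocalins outside the run varied. Lcn12, an epididymal lipocalin, had a promoter covered over 4911 and 4843 bp in Kdm6b-cKO against 0 and 0 bp in WT, and 26.9 and 25.6 kb against 14.5 and 4.67 kb within 25 kb. These bases formed a single region of 26.9 kb when joined across libraries, and its WT peaks did not reach the Lcn12 promoter. Lcn4, the other vomeronasal secretory lipocalin, was marked in every library, with 6001 and 6001 bp against 5453 and 4191 bp. The wide windows of its groups overlapped, at 25.8 and 18.6 kb in Kdm6b-cKO cells against 25.4 and 11.9 kb in WT cells. At equal covered length the Lcn12 groups overlapped as well, with 0 and 25.6 kb against 14.5 and 4.67 kb, and Lcn4 turned, with 0 and 1.33 kb against 4.86 and 11.9 kb.

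Lcn2, a siderophore-binding antibacterial protein, lies far from the others and had a compact pattern. Its promoter was covered over 4096 and 5207 bp in Kdm6b-cKO against 55 and 0 bp in WT. This came from 1 peak in each Kdm6b-cKO library, 5.93 and 6.96 kb long with fold enrichments of 3.41 and 3.27, while WT replicate 7 had a peak of 0.238 kb and WT replicate 9 had 0. At equal covered length the Kdm6b-cKO peaks stayed in their lists, with 11.9% and 13.9% of the 50 kb window covered against 0% and 0%. The 6 annotated Lcn2 start sites, spread over 2.25 kb, were all marked in Kdm6b-cKO alone. The same peak reached the promoter of 1110008P14Rik (1520 and 1440 bp against 0 and 0 bp) but not that of Ptges2, which had 0 bp in every library.

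The Wfdc, Spint and Slpi genes spread over chr2:164157742-164770931 with 25 kb on each side. Peaks covered 26.4% and 22.8% of this stretch in Kdm6b-cKO against 16.3% and 9.92% in WT (24.6 ± 2.53% and 13.1 ± 4.50%, SD, n = 2). The ratio of 1.88 was close to the 1.78 of the whole genome. As a share of each library's covered length, the stretch held 10.9, 11.3, 10.9 and 9.88 per 10000, with the WT replicate 7 value between those of Kdm6b-cKO. For the wider lipocalin stretch from Lcn12 to Lcn4, which also holds 38 other protein-coding genes, the shares were 29.5% and 28.1% against 15.7% and 10.1%, a ratio of 2.23. At equal covered length the difference fell from 15.9 to 2.84 percentage points for the lipocalin stretch and from 11.5 to 3.18 for the Wfdc stretch.

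Within the Wfdc stretch the runs differed. The run from Wfdc2 to Wfdc3, 12 genes at chr2:164537413-164770931, was covered over 44.1% and 41.6% in Kdm6b-cKO against 26.9% and 16.8% in WT, a ratio of 1.96, and the groups did not overlap. At equal covered length they did overlap, with 24.8% and 15.6% against 16.1% and 16.8%. The run from Wfdc5 to Wfdc15b, 4 genes at chr2:164157742-164246660, was covered over 13.5% and 9.77% against 10.3% and 9.51%. The 2 groups overlapped there, and the difference of 1.71 percentage points became -0.16 without Kdm6b-cKO replicate 3, 3.58 without Kdm6b-cKO replicate 4 and -0.48 at equal covered length.

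**Figure D3:**
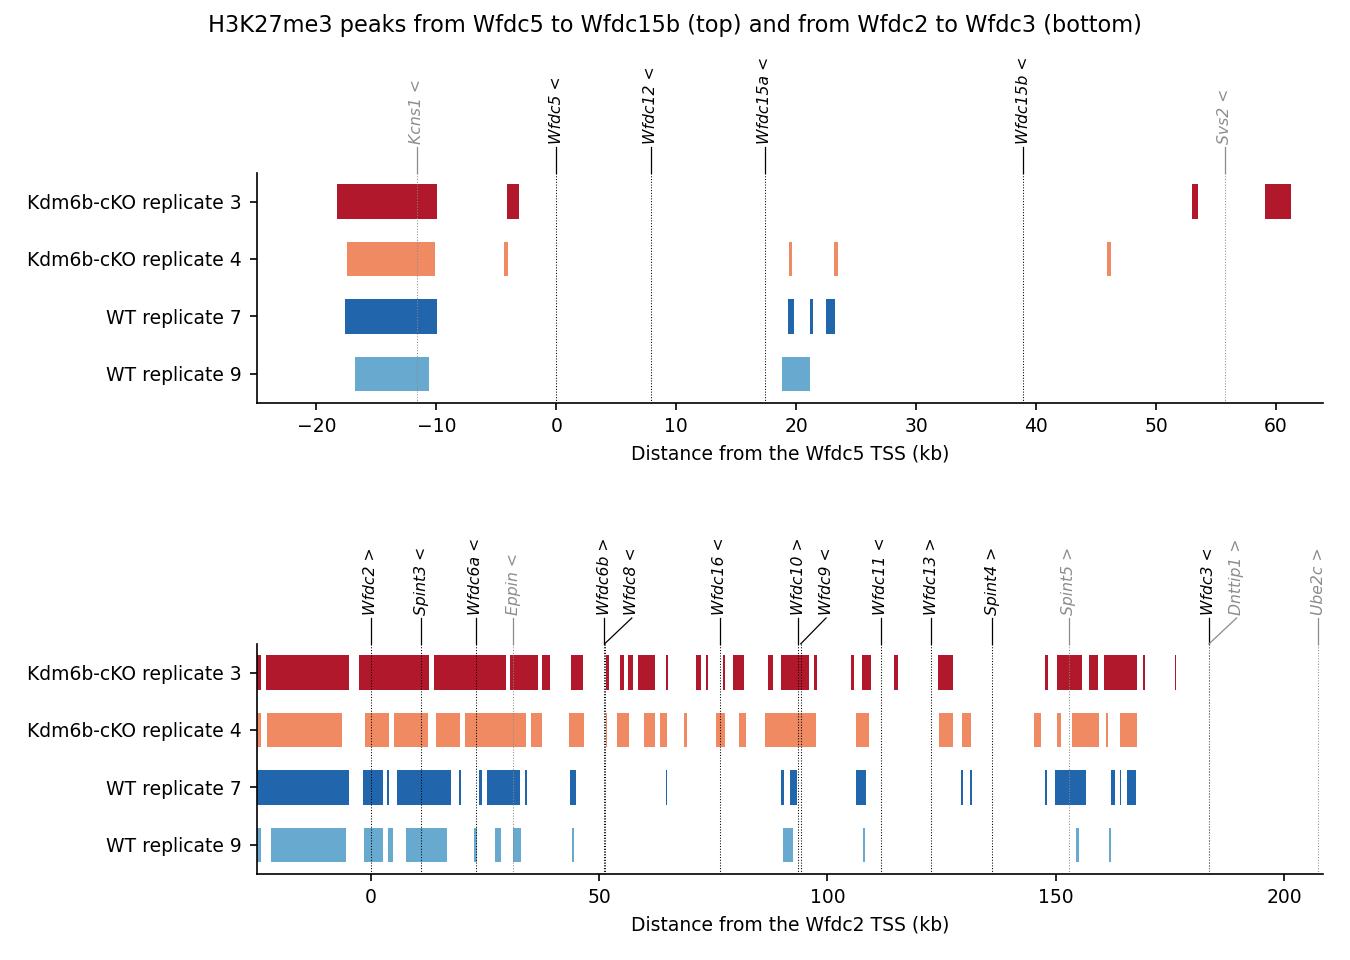
Peaks of the 4 libraries along the run from Wfdc5 to Wfdc15b (top, distance in kb from the Wfdc5 TSS) and from Wfdc2 to Wfdc3 (bottom, distance in kb from the Wfdc2 TSS), one row of bars for each library. Dotted lines are start sites, black for the genes described and grey for others, and > or < gives the strand. In the top panel the one long peak of all 4 libraries lies at Kcns1, and in the bottom panel peaks of all 4 libraries cover Wfdc2 and Spint3 while the stretch from Wfdc6b to Wfdc16 is marked mainly in Kdm6b-cKO.

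Wfdc2, also known as the epididymal protein HE4, and the Kunitz gene Spint3 were marked in both genotypes. The Wfdc2 promoter was covered over 5550 and 4259 bp in Kdm6b-cKO against 4399 and 4135 bp in WT, and the groups overlapped. The Spint3 promoter was covered over 4938 and 4430 bp in Kdm6b-cKO and over the full 6001 bp in both WT libraries. Spint3 and Wfdc15a were the 2 promoters at which both WT values lay above both Kdm6b-cKO values (7.41%; 0.741% of all genes). In its wide window Spint3 went the other way, with 45.8 and 40.2 kb in Kdm6b-cKO cells against 34.6 and 26.1 kb in WT cells.

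The genes that combine WAP and Kunitz domains lie next to these. Wfdc6a had a promoter covered over 6001 and 5451 bp in Kdm6b-cKO against 1263 and 680 bp in WT, the largest promoter difference of the Wfdc group (4755 bp). Its neighbour Eppin, a protein that coats sperm, was marked in all 4 libraries with 5037 and 5853 bp against 4835 and 1960 bp. Wfdc6b and Wfdc8 have start sites 104 bp apart and so nearly the same window, with 642 and 513 bp and 642 and 617 bp in Kdm6b-cKO against 0 bp in both WT libraries. Their call as marked is therefore close to the 500 bp limit. Within 25 kb, each had about 22 kb in Kdm6b-cKO, and Wfdc8 had 8.34 and 3.13 kb in WT. At equal covered length the Wfdc6a promoter had 6001 and 0 bp against 0 and 680 bp, and the Wfdc6b and Wfdc8 promoters had 0 bp in every library.

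With all deposited peaks, the small single-domain WAP genes further right were covered mainly in Kdm6b-cKO. Wfdc16 had 1047 and 1942 bp at the promoter against 0 and 0 bp, and 19.02 and 22.2 kb against 2.48 and 2.32 kb within 25 kb. Wfdc10 and Wfdc9, with start sites 537 bp apart, were marked in all 4 libraries. Wfdc10 had 5435 and 6001 bp against 1592 and 1915 bp, and Wfdc9 had 4928 and 6001 bp against 1592 and 1378 bp. Wfdc13 had 1430 and 1357 bp against 0 and 0 bp. Wfdc11 had 1093 and 403 bp against 0 and 0 bp, so 1 Kdm6b-cKO library fell below the limit. At equal covered length the Wfdc10 promoter had 5435 and 0 bp against 0 and 1915 bp, and Wfdc9 had 4898 and 0 bp against 0 and 1378 bp. Wfdc11 then had 955 and 0 bp against 0 and 0 bp, and the Wfdc16 and Wfdc13 promoters had 0 bp in every library. Spint4 and Wfdc3, at the right end, had 0 bp at the promoter in every library, with wide windows of 12.8 and 13.3 kb against 8.15 and 0.726 kb for Spint4 and 8.63 and 5.09 kb against 3.22 and 0.298 kb for Wfdc3.

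The genes of the left run showed little of the mark. Wfdc5, Wfdc12 (an antibacterial WAP protein) and Wfdc15b had 0 bp at the promoter in every library. Wfdc15a had 0 and 251 bp in Kdm6b-cKO against 475 and 1577 bp in WT, and the WT values were the higher ones. The wide window of Wfdc5 held 9.31 and 8.34 kb in Kdm6b-cKO cells against 9.19 and 8.46 kb in WT cells, most of it the peak at the potassium channel gene Kcns1, whose promoter was marked in all 4 libraries (4710, 4532, 4692 and 3977 bp).

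For Slpi, an inhibitor of neutrophil elastase, the value depends on the start site used. The gene record begins at its outermost annotated start, where the promoter was covered over 3148 and 346 bp in Kdm6b-cKO against 0 and 0 bp in WT, with 25.1 and 20.9 kb against 14.5 and 11.1 kb within 25 kb. That window adjoins Matn4 and Rbpjl, both marked in all 4 libraries. At the nearest other annotated start, 32.6 kb away, and at the RefSeq promoter, coverage was 0 bp in every library, and the wide window there held 1.00 kb in Kdm6b-cKO replicate 3 and 0 kb in the others. The Slpi values of the gene record therefore describe the Matn4 and Rbpjl neighbourhood more than the RefSeq start of Slpi.

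**Figure D4:**
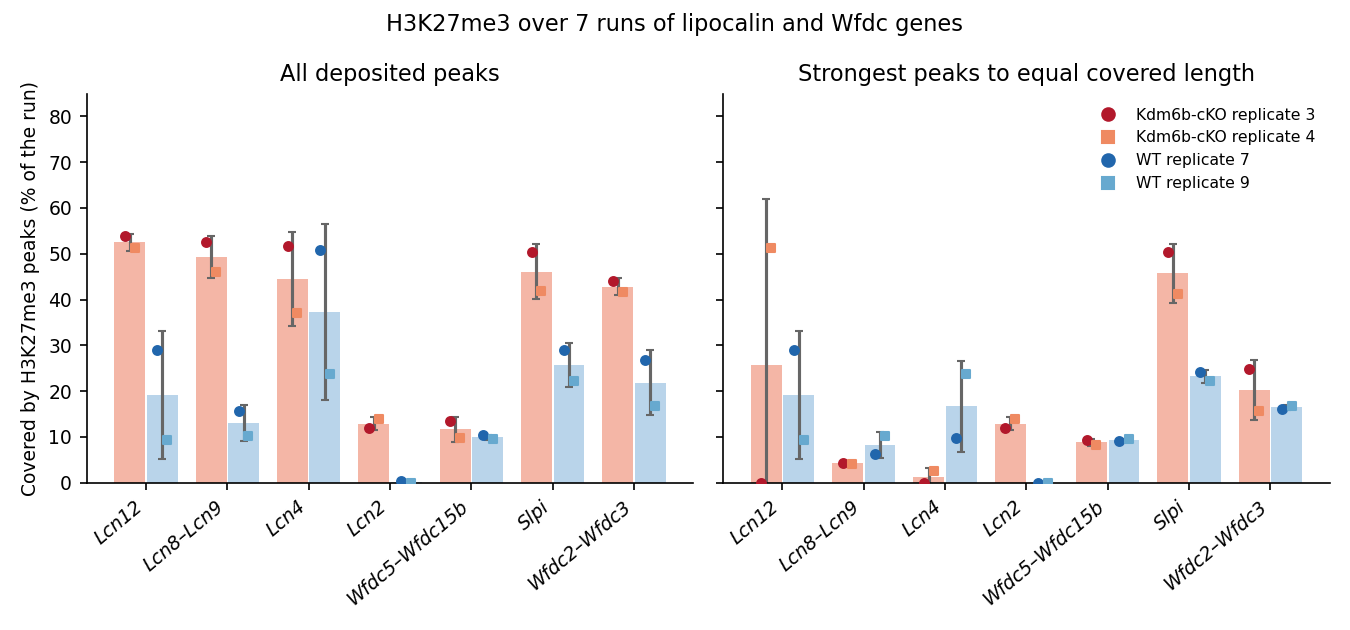
Share of each of the 7 runs covered by peaks (%, y axis from 0), with all deposited peaks (left) and with the strongest peaks of each list up to the covered length of the shortest list (right). Bars are means of 2 libraries, error bars are the SD and symbols are the libraries. From left to right panel the Lcn8 to Lcn9 run goes from 49.3% against 12.9% to a lower value in Kdm6b-cKO than in WT, while Lcn2 stays covered in Kdm6b-cKO alone and Slpi stays higher in Kdm6b-cKO.

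Of the 100 other protein-coding genes with a start site within 200 kb of the clusters, 20 promoters were marked in all 4 libraries, 10 cKO-only, 0 in the reverse pattern, 12 in other combinations and 58 in no library. Over all genes 15.2% were marked in all 4 libraries and 4.28% were cKO-only. The 10 were Gm13539, Obp2b, Sapcd2, Sohlh1 and Tmem141 near the lipocalin genes, 1110008P14Rik, 9430097D07Rik and Pip5kl1 near Lcn2, and Svs3a and Svs5 near the Wfdc genes. Gm13539, beside Lcn11, was covered over its full promoter of 6001 bp in both Kdm6b-cKO libraries and 0 bp in both WT libraries. Sohlh1, a transcription factor gene of germ cells, had 4962 and 4396 bp against 0 and 332 bp. On the outer sides, Ptgds (prostaglandin D synthase, itself a lipocalin) had 4363 and 3976 bp against 1691 and 246 bp. Abo, beyond Lcn4, had 4931 and 4935 bp against 5092 and 2781 bp. Paxx, Dnm1, Ptges2, Naif1, Tomm34, Dnttip1 and Ube2c had 0 bp at their promoters in every library.

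Lists drawn up by family give the relatives of these genes, and some of these are neighbours already counted above. For comparison, 28.8% of all genes were marked in at least 1 library, 15.2% in all 4 and 4.28% were cKO-only. Of 15 annotated other lipocalins, 5 promoters were marked in at least 1 library, 3 of 4 among the neighbours and 2 of 11 elsewhere. Obp2b, an odorant-binding lipocalin inside the Lcn8 to Lcn9 run, was cKO-only (3741 and 2611 bp against 6 and 0 bp). Rbp4, the retinol carrier of plasma, was marked in all 4 libraries, and Ptgds, Obp2a and Ambp in other combinations. Of 12 annotated other WAP or Kunitz genes, 9 were marked and 7 of them in all 4 libraries, including both neighbours, Eppin and Spint5. The others marked in all 4 included Wfdc17, Wfdc18 and Wfdc21, which lie on another chromosome and were covered over the full 6001 bp in each library. Wfikkn2 was cKO-only (2103 and 2165 bp against 0 and 0 bp), and Wfdc1 had 6001 and 6001 bp against 1802 and 0 bp. Of 6 annotated seminal vesicle genes, which all lie beside the Wfdc genes, 5 were marked in at least 1 library. Svs3a (2569 and 2541 bp against 0 and 0 bp) and Svs5 (1383 and 568 bp against 431 and 0 bp) were cKO-only.

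Their promoters are poor in CpG, a feature that did not enter the choice of genes. Within 500 bp of the TSS, the 27 genes had a median of 13.0 CpG per kb, against 41.0 over all genes. By GC of at least 50% with an observed-to-expected CpG ratio of at least 0.6, 1 of 27 promoters was island-like (3.7%), against 44.7% of all genes, 48.4% of the 3293 promoters marked in all 4 libraries and 23.4% of the 929 cKO-only promoters. The exception was Wfdc3, with 81.9 CpG per kb, which had 0 bp covered in every library. Its start site in the gene record is close to that of Dnttip1, a gene on the other strand. The RefSeq promoter of Wfdc3 held 3 CpG in 300 bases, also with 0 bases covered in every library. Wfdc2 had the most CpG among the RefSeq promoters, 16 in 300 bases, and that sequence lay wholly inside peaks of all 4 libraries.

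The 8 genes marked in all 4 libraries had a median of 15.98 CpG per kb, the 8 cKO-only genes 10.99, and the 5 marked in no library 21.98. Over all genes, of 12006 promoters that were not island-like, 14.2% were marked in all 4 libraries and 5.93% were cKO-only, against 16.4% and 2.23% of the 9722 island-like promoters. RefSeq promoters were found for 25 of the 27 genes, 28 sequences in all, with a median of 4 CpG in 300 bases against 7 over the 32851 promoters of the table. Of the 28, 5 lay wholly inside peaks of both Kdm6b-cKO libraries with 0 bases in either WT library, 5 wholly inside peaks of all 4, and 10 had 0 bases inside any peak. The shares of all 32851 promoters with these patterns are not given here, so these counts cannot be read as a trait of the genes.

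**Figure D5:**
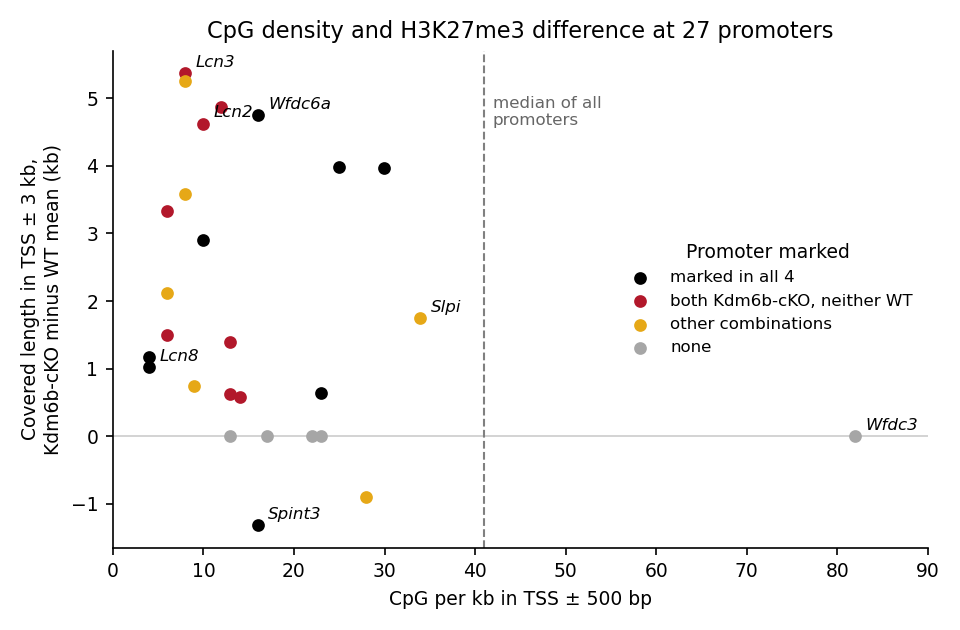
CpG per kb within 500 bp of the TSS (x axis) against the difference in covered promoter length between group means, Kdm6b-cKO minus WT (kb, y axis), one point per gene, coloured by which libraries marked the promoter. The dashed line is the median of all promoters, 41.0 CpG per kb, and all points but Wfdc3 lie to its left.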

How the data were processed

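H3K27me3 ChIP-seq peak lists of 2 Kdm6b-cKO and 2 WT libraries were used, grouped by title, and the input was not used here. Per the submitters' processing notes, the build was mm10 and the tools included MACS2 2.2.7.1, Bowtie2 2.3.5.1, deepTools 3.5.1 and SAMtools 1.9. The study's methods state that reads were subsampled to equivalent depth in each sample before broad calling, and each library was called on its own. The lists hold 44084, 40577, 29848 and 22607 peaks (Kdm6b-cKO replicates 3 and 4, WT replicates 7 and 9). The deposited columns give positions, a display score, a fold ratio over local background and −log10 p and q values, as the authors' caller averaged them over each peak. The lists hold no read counts, so the depth behind a value cannot be read from the files and no interval can be given.

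Covered base pairs were computed for the TSS ± 3 kb and ± 25 kb of the GENCODE M21 gene record (1 record per symbol), and a promoter was marked at 500 bp or more. Stretches were bounded 25 kb beyond the outer TSS. Fold ratio and −log10 q, as deposited, were used to describe and rank peaks. RefSeq promoters and CpG came from GRCm38.p6. Python 3.11.15, numpy 2.4.6 and matplotlib 3.10.9 were used, and overlap functions were tested on simulated data. No test was run, since the genes and lists were chosen with earlier results of these data known. Named genes were all 27 members, the nearest 2 neighbours on each outer side of a cluster, neighbours on the family lists and neighbours marked in both libraries of 1 genotype alone. Other genes named, such as Matn4, Rbpjl and Wfdc17, were chosen after their values were seen, as were the 100 kb runs. Alternatives were other peak selections, windows and start sites, and leaving out each library.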

Additional observations from a re-analysis of the deposited data

How the results depend on the processing

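Of the alternatives, 74 of 88 values moved by less than the replicate spread or stayed within 1.5 times the count, 11 moved further and 3 reversed. The 74 are no measure of stability for covered shares without 1 library. With 2 libraries a group, such a share cannot move beyond the replicate spread by construction, and only its sign can change the label. Trimming to equal covered length gave most of the values that moved further or reversed. The difference in covered share became 2.84 percentage points for the lipocalin stretch, 3.18 for the Wfdc stretch, -4.00 for Lcn8 to Lcn9, -0.48 for Wfdc5 to Wfdc15b and 3.80 for Wfdc2 to Wfdc3. The counts became 2 promoters marked in all 4 libraries (10.9% of all genes) and 1 marked in Kdm6b-cKO alone (0.7% of all genes). The lower Kdm6b-cKO value then lay above the higher WT value at 1 promoter, and the share of all genes was not counted for this. Within 25 kb that order held for 4 genes (14.8%; 12.7% of all genes). By construction this setting keeps far fewer peaks in the longer lists, and the cause of the length difference was not tested. An equal number of peaks gave 29.3 points for Lcn8 to Lcn9 and 5 promoters marked in Kdm6b-cKO alone (2.81% of all genes). At −log10 q of at least 3, promoters marked in all 4 libraries numbered 3, where 12.7% of all genes were so marked. Within 1 kb of the TSS they numbered 4, and the share of all genes was not counted there. Without each library in turn, Wfdc5 to Wfdc15b ranged from -0.16 (without Kdm6b-cKO replicate 3) to 3.58 (without Kdm6b-cKO replicate 4) and other values kept their direction. No paired analysis was possible because the groups share no replicate numbers. With 2 libraries a group and no read counts, differences near the spread between libraries cannot be resolved.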
